A study of Arabidopsis thaliana with 12 samples.

Results

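The L-type lectin receptor kinases (LecRKs) described here are 10 Arabidopsis genes, picked by their gene identifiers from the 33197 identifiers of the expression table by a rule that states no measured value, with earlier results of these data known. They are LecRK-I.8 (AT5G60280), LecRK-I.9 (AT5G60300), LecRK-V.5 (AT3G59700), LecRK-VI.2 (AT5G01540), LecRK-VI.3 (AT5G01550), LecRK-VI.4 (AT5G01560), LecRK-VIII.1 (AT3G53380), LecRK-IX.1 (AT5G10530), LecRK-IX.2 (AT5G65600) and LecRK-S.4 (AT3G55550). Their transcripts were followed in whole 10-day-old seedlings of the cultivar Col-0 in 3 genotypes. WT is wildtype, asr3-1 carries a mutant ASR3, and OX9 is a single 35S:ASR3-HA transgenic line that expresses HA-tagged ASR3 from the constitutive viral 35S promoter. ASR3 is a trihelix transcription factor known as a repressor of immune gene expression. Each genotype was left untreated or received flg22, a peptide of bacterial flagellin, for 30 min after a night in water. The submitters give its dose as 100 nM in their design and as 100 mM in the treatment protocol. The experiment was done in 2 independent repeats, which gives 12 libraries in 6 groups of 2, and each library combines RNA of 2 biological replicates.

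L-type LecRKs are membrane proteins with an extracellular domain that resembles legume lectins, a single transmembrane segment and a cytosolic kinase domain. Some of them sense small molecules that leak from damaged cells, or act beside pattern recognition receptors. LecRK-I.9, also called DORN1, is the receptor of extracellular ATP, and LecRK-I.8 has been linked to extracellular NAD+ and to the response to insect eggs. LecRK-VI.2 associates with FLS2, the receptor of flg22, and promotes pattern-triggered immunity, whereas LecRK-V.5 is known as a negative regulator of stomatal immunity. LecRK-VI.2, LecRK-VI.3 and LecRK-VI.4 act redundantly in abscisic acid responses of germinating seed, and LecRK-IX.1 and LecRK-IX.2 take part in resistance to Phytophthora and in cell death.

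The 10 genes lie on chromosomes 3 and 5. In the RefSeq annotation of TAIR10.1, LecRK-VI.2, LecRK-VI.3 and LecRK-VI.4 form a tandem row on the minus strand of chromosome 5, from 210979 to 213472, 214373 to 216773 and 218029 to 221198. Their coding sequences are 79.5 to 80.8% identical to each other. LecRK-I.8 (24260225 to 24262536) and LecRK-I.9 (24264488 to 24268029) neighbour each other on the plus strand of chromosome 5 and share 71.2% of aligned coding bases. LecRK-IX.1 (3324824 to 3327868) and LecRK-IX.2 (26215991 to 26218623) are 73.3% identical and lie on the minus strand of the same chromosome, far apart. LecRK-VIII.1 (19789038 to 19791695, minus strand), LecRK-S.4 (20599978 to 20602129, minus strand) and LecRK-V.5 (22052121 to 22054394, plus strand) lie on chromosome 3. All pairs across these clades were at most 62.6% identical. LecRK-I.9 has 3 exons in its longest coding transcript and the other genes have a single exon. Of all 33-base stretches of a transcript, 5.17% also occurred elsewhere in the genome for LecRK-V.5, 1.88% for LecRK-IX.2 and at most 0.57% for the other 8 genes.

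The promoter stretches printed here, the 250 bases before the annotated start of the transcript in TAIR10.1, belong to the 4 genes with the largest mean difference between flg22 and untreated libraries and to LecRK-VIII.1, the gene with the smallest. Capitals mark matches to the W box letters TTGACC or TTGACT, the core bound by WRKY factors, and to the GT box letters GGTTAA, of a kind bound by trihelix factors, on either strand. The stretches are LecRK-IX.2 at chr5:26218624-26218873 (minus strand), LecRK-VI.3 at chr5:216774-217023 (minus strand), LecRK-VI.2 at chr5:213473-213722 (minus strand), LecRK-V.5 at chr3:22051871-22052120 (plus strand) and LecRK-VIII.1 at chr3:19791696-19791945 (minus strand).
LecRK-IX.2: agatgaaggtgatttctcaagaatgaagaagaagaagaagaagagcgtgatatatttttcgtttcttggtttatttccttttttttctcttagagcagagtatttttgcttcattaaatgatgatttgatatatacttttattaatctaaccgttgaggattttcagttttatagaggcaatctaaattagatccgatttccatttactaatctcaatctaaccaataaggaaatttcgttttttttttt
LecRK-VI.3: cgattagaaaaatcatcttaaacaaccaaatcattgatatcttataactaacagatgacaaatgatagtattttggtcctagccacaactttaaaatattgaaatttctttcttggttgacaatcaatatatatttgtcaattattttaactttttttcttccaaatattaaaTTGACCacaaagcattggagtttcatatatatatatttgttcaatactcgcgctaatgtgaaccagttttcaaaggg
LecRK-VI.2: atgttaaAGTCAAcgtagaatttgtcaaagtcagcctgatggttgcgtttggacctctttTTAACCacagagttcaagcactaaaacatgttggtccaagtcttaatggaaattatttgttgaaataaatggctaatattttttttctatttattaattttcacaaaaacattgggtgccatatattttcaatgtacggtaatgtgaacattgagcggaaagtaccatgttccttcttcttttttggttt
LecRK-V.5: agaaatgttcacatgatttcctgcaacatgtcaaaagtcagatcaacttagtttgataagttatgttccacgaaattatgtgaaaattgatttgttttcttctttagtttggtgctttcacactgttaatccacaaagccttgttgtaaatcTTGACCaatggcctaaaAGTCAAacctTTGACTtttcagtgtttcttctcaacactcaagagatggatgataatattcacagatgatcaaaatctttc
LecRK-VIII.1: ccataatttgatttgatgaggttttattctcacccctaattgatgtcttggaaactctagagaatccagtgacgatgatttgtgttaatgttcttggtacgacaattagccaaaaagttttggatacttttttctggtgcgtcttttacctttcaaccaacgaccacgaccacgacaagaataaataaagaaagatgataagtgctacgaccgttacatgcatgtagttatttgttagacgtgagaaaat

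LecRK-V.5 held 3 W box matches within 98 bases of its start, LecRK-VI.3 held 1 at 77 bases, and LecRK-VI.2 held 1 at 243 bases beside a GT box match at 190 bases. LecRK-I.9 and LecRK-S.4 also held 1 W box match each. The stretches of LecRK-IX.2, LecRK-VIII.1, LecRK-VI.4, LecRK-I.8 and LecRK-IX.1 held none of the motifs searched, which also included the G box CACGTG and the GCC box GCCGCC. Among 27438 promoters of the same length, 28.4% held a W box match and 14.6% a GT box match, so that a W box match in 5 of 10 genes is a description of these letters only. The stretch of LecRK-IX.2 lies within an intron of AT5G65609, and 121 bases of that of LecRK-VI.2 lie within the non-coding gene AT5G01542. All 250 bases of LecRK-VI.4 lie within exons of AT5G01570, and all 250 of LecRK-IX.1 within exons of AT5G10540. For LecRK-I.8, 69 bases lie within exons of LecRK-I.7 (AT5G60270).

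In untreated seedlings the 10 genes differed widely in level. FPKM, the deposited unit, is scaled to transcript length, so levels can be set side by side. The levels of LecRK-VI.2 and LecRK-IX.1 carry a further limit, since genes on the opposite strand cover them, as described below. Over the 6 untreated libraries, LecRK-VI.4 stood highest at 10.1 ± 1.22 FPKM (SD, n = 6), ahead of LecRK-I.9 at 9.06 ± 0.457 and LecRK-VIII.1 at 7.34 ± 1.30. LecRK-I.8 followed at 4.54 ± 0.998, LecRK-V.5 at 2.37 ± 0.639, LecRK-IX.1 at 1.58 ± 0.327 and LecRK-VI.3 at 1.15 ± 0.547. LecRK-IX.2 was at 0.437 ± 0.135, and LecRK-VI.2 and LecRK-S.4 were near 0, at 0.0795 ± 0.0664 and 0.0635 ± 0.0597. Neighbours in this order overlapped in their ranges, except that LecRK-VIII.1 lay above LecRK-I.8 and LecRK-IX.2 above LecRK-VI.2 in every untreated library. LecRK-S.4 stayed low with flg22 too, at 0.0 to 0.218 FPKM in the 6 treated libraries, and failed the requirement of at least 1 FPKM in at least 2 libraries. The other 9 genes were tested, LecRK-VI.2 and LecRK-IX.2 among them only through their treated libraries, where alone they reached 1 FPKM.

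**Figure D1:**
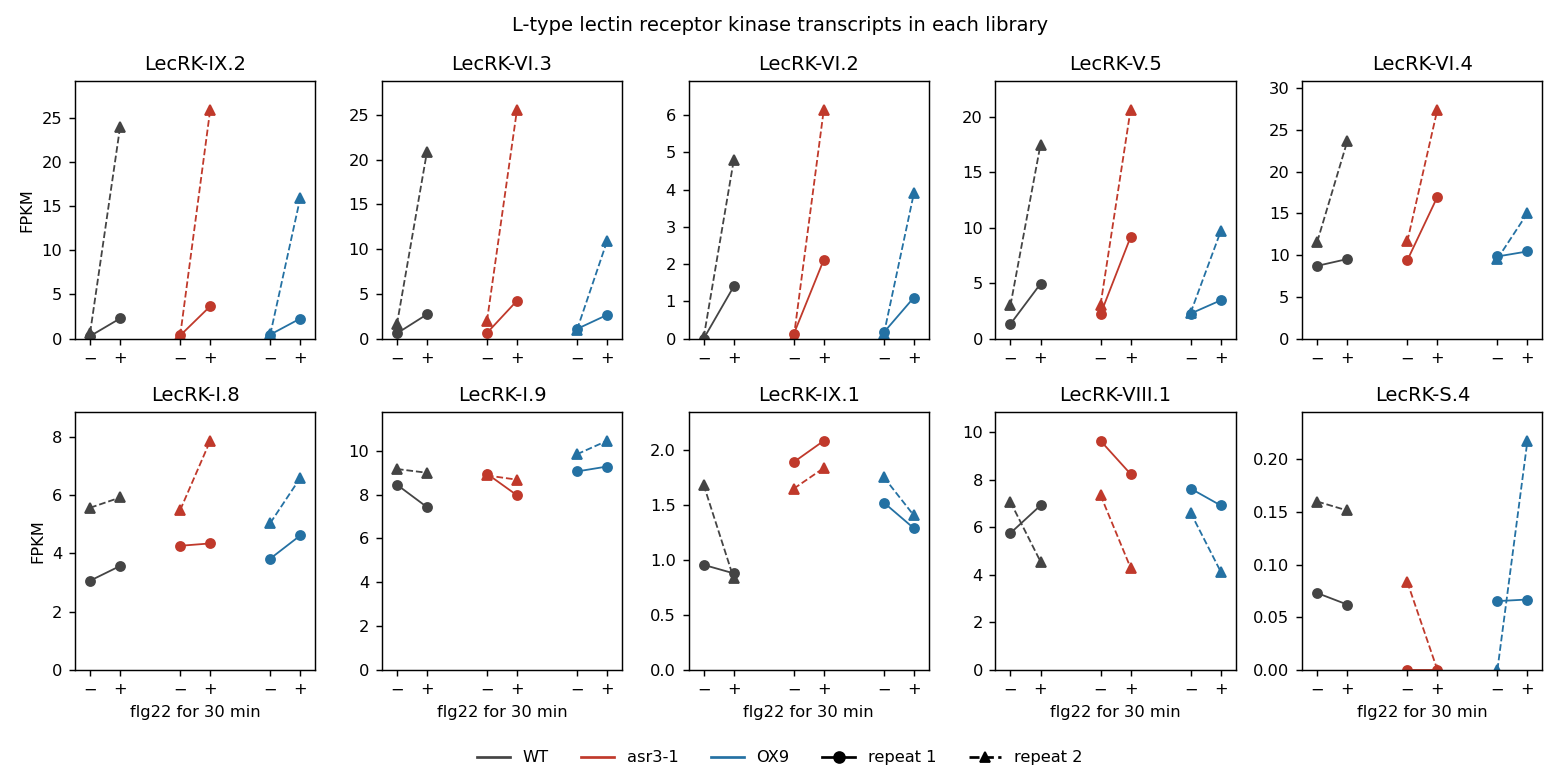
FPKM of the 10 LecRK genes in each of the 12 libraries, with a panel per gene, untreated (−) and flg22-treated (+) libraries joined within a genotype and a repeat, and an axis from 0 in each panel. LecRK-IX.2, LecRK-VI.3, LecRK-VI.2 and LecRK-V.5 lie higher in all treated libraries than in all untreated ones, most so in repeat 2, while LecRK-I.9 stays between 7.43 and 10.5 FPKM throughout.

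With flg22, LecRK-IX.2, LecRK-VI.3, LecRK-VI.2 and LecRK-V.5 lay higher in all 6 treated libraries than in any untreated one. Such a separation was seen in 6.19% of the 20753 genes tested. Across the 6 pairs of an untreated and a treated library of the same genotype and repeat, the treated library was the higher in 6 of 6 pairs for these 4 genes and for LecRK-VI.4 and LecRK-I.8, against 12.5% of all genes tested. The test set the mean of the 3 genotypes' responses on log2(FPKM + 1) against the spread between libraries of a group. On that scale 1 of the 9 genes tested, LecRK-VI.2, rose with an adjusted p under 0.05, where 3.83% of all genes rose. A fit with the repeat as a block removes a shift common to all libraries of a repeat, treated and untreated. A difference in response between the repeats stays in its spread. With the block, 5 of 9 rose (LecRK-IX.2, LecRK-VI.3, LecRK-VI.2, LecRK-V.5 and LecRK-VI.4), where 10.1% of all genes rose. None of the 9 fell in either fit. The median log2 difference of the 9 was 0.62, beside -0.03 over all genes tested. LecRK-VI.2 and LecRK-IX.2 were tested only through the treated libraries in which they are high. The counts given here, those of separation and of pairs included, and the median therefore describe the genes. Nothing is read from them against the shares of all genes.

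On log2(FPKM + 1) LecRK-IX.2 had the largest mean difference of the 9 genes, and with a pseudocount of 0.1 in place of 1 it came after LecRK-VI.2 (3.88 and 4.05). In WT it went from 0.289 to 2.29 FPKM in repeat 1 and from 0.672 to 24.0 in repeat 2. In asr3-1 it went from 0.360 to 3.67 in repeat 1 and from 0.363 to 25.9 in repeat 2. In OX9 it went from 0.460 to 2.28 in repeat 1 and from 0.481 to 16.0 in repeat 2. All treated libraries were high and all untreated ones low, with no overlap, and the ratio within a pair ran from 4.96 to 71.4. The mean log2 difference was 2.67 (SE 0.66), with an adjusted p of 0.0689 by limma and of 0.0128 with the replicate block. Its relative LecRK-IX.1 was listed at 0.956 to 1.89 FPKM untreated and 0.833 to 2.09 with flg22, with a mean log2 difference of -0.13 (SE 0.13, adjusted p = 0.842). The ranges of its treated and untreated libraries overlapped almost fully. The values of LecRK-IX.1 cannot be told apart from those of a gene on its opposite strand, described below.

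The tandem genes of clade VI, whose products act together in abscisic acid responses, started from different levels; the differences among their responses were not tested. LecRK-VI.3 went from 0.589 to 2.71 FPKM in WT, from 0.635 to 4.24 in asr3-1 and from 1.09 to 2.65 in OX9 in repeat 1. In repeat 2 it went from 1.60 to 20.9 in WT, from 1.98 to 25.6 in asr3-1 and from 1.02 to 10.9 in OX9. The treated libraries of LecRK-VI.3 lay above all untreated ones, and the mean log2 difference was 2.08 (SE 0.58, adjusted p = 0.104, and 0.0107 with the replicate block). LecRK-VI.2 was listed at 0.0 and 0.0324 FPKM in untreated WT, at 0.123 and 0.0334 in untreated asr3-1 and at 0.168 and 0.121 in untreated OX9. With flg22 it was at 1.40 and 4.78 in WT, 2.12 and 6.14 in asr3-1 and 1.10 and 3.90 in OX9, repeat 1 before repeat 2. From low values of the table, the untreated libraries are estimated to hold 0.0 to 3.22 reads of LecRK-VI.2 and the treated ones 20.4 to 124.1. Its mean log2 difference was 1.83 (SE 0.32, adjusted p = 0.0206, and 0.00497 with the replicate block), and 4.05 with a pseudocount of 0.1 (adjusted p = 0.00562). Without the block, the call of LecRK-VI.2 held in 3 of 12 fits that each left out a library, with log2 differences of 1.62 to 2.04 and adjusted p of 0.0147 to 0.0738. The 3 are those without a treated library of repeat 1.

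LecRK-VI.4, the third gene of the row, was already at 8.71 to 11.7 FPKM in untreated seedlings. With flg22 it was at 9.53 and 23.6 FPKM in WT, 17.0 and 27.4 in asr3-1 and 10.4 and 15.0 in OX9, repeat 1 before repeat 2. The treated libraries of WT and OX9 in repeat 1 lay within the untreated range. The mean log2 difference was 0.62 (SE 0.24, adjusted p = 0.243, and 0.0313 with the replicate block). With the block, LecRK-VI.4 passed in 3 of 12 fits that left out a library, whereas LecRK-IX.2, LecRK-VI.3, LecRK-VI.2 and LecRK-V.5 each passed in 12 of 12.

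The values of LecRK-VI.2 cannot be told apart from those of a gene on the other strand. The table also lists AT5G01542, a non-coding RNA gene that covers 98.5% of the exon bases of LecRK-VI.2 on the opposite strand (chromosome 5, 211017 to 213593, plus strand, TAIR10.1), and the sources used here do not say whether kit and counting kept the strand. AT5G01542, looked up after the values of LecRK-VI.2 were seen, was listed at 1.62 to 2.97 FPKM in untreated libraries and at 16.4 to 156.6 with flg22, a log2 difference of 3.93 (SE 0.58, adjusted p = 0.0121). LecRK-VI.2 made up 0.0 to 7.75% of the sum of both. How the reads of this stretch were divided between both genes was not tested. LecRK-IX.1 is covered in full (100.0% of its exon bases) by the first exon of AT5G10540, the gene of thimet metalloendopeptidase 2, on the opposite strand, which was at 28.9 to 39.1 FPKM over all libraries. The values of LecRK-IX.1 cannot be told apart from those of AT5G10540 either. Overlaps of LecRK-VI.4 with AT5G01570 (6.97% of its exon bases), of LecRK-IX.2 with AT5G65609 (4.33%) and of LecRK-I.9 with LecRK-I.10 (0.582%) were smaller. AT5G65609 lies on the same strand as LecRK-IX.2 and was listed at 0.0 to 37.2 FPKM untreated and 8.45 to 44.4 with flg22. Its log2 difference was 2.29 (adjusted p = 0.0737 by limma, and 0.0471 with the replicate block), with treated and untreated ranges that overlapped. How reads of the bases shared with LecRK-IX.2 were divided was not tested.

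**Figure D2:**
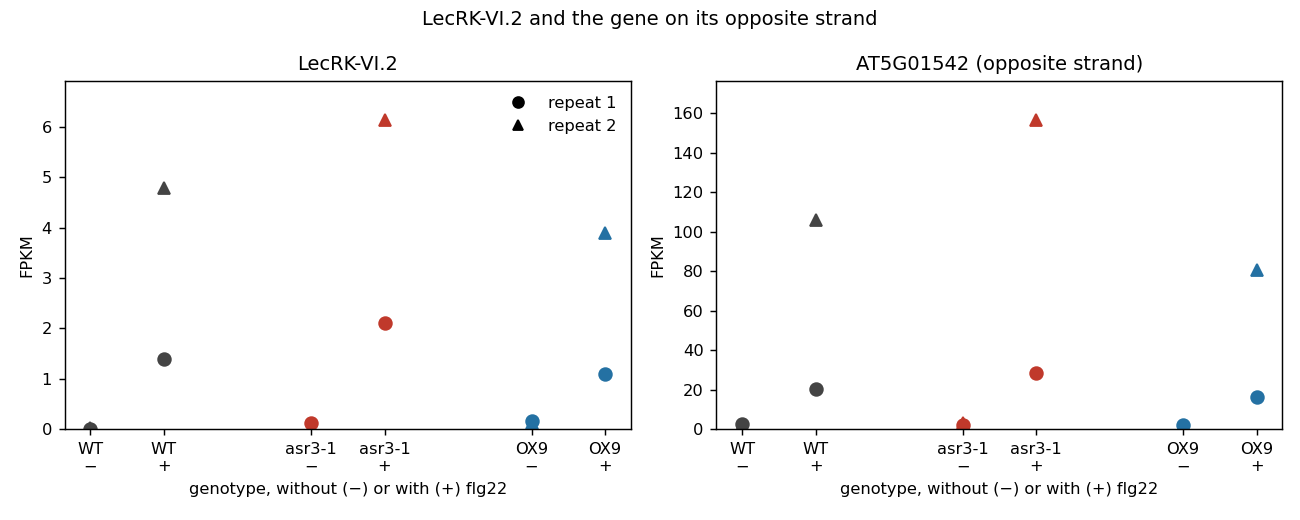
FPKM of LecRK-VI.2 (left) and of AT5G01542, the non-coding gene on its opposite strand (right), in each library by genotype and treatment, with circles for repeat 1 and triangles for repeat 2 and both axes from 0. Both genes are high in the treated libraries, with AT5G01542 reaching 156.6 FPKM where LecRK-VI.2 reaches 6.14.

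LecRK-V.5, the negative regulator of stomatal immunity, went in WT from 1.32 to 4.94 FPKM in repeat 1 and from 3.01 to 17.5 in repeat 2. In asr3-1 it went from 2.21 to 9.15 and from 3.07 to 20.6, and in OX9 from 2.26 to 3.45 and from 2.33 to 9.65. Treated and untreated libraries did not overlap, though the treated OX9 library of repeat 1 lay close to the untreated maximum of 3.07. The ratio within a pair ran from 1.53 to 6.72, and the mean log2 difference was 1.63 (SE 0.37, adjusted p = 0.0507, and 0.00427 with the replicate block).

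LecRK-I.9 and LecRK-I.8 gave small differences that did not pass. LecRK-I.9, the ATP receptor, was at 8.46 to 9.85 FPKM untreated and 7.43 to 10.5 with flg22, with a mean log2 difference of -0.04 (SE 0.10, adjusted p = 0.995). Of its pairs, 4 of 6 were lower and 2 higher with flg22. LecRK-I.8 was at 3.06 to 5.56 FPKM untreated and 3.56 to 7.86 with flg22, and its treated library was the higher in each pair by a ratio of 1.02 to 1.43. The mean log2 difference of LecRK-I.8 was 0.21 (SE 0.21, adjusted p = 0.839, and 0.163 with the replicate block).

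LecRK-VIII.1 was the only one of the 9 genes whose treated library was the lower in 5 of 6 pairs. In repeat 2 it went from 7.06 to 4.55 FPKM in WT, from 7.35 to 4.29 in asr3-1 and from 6.61 to 4.13 in OX9. In repeat 1 it went from 5.75 to 6.91 in WT, from 9.63 to 8.24 in asr3-1 and from 7.62 to 6.92 in OX9. The treated libraries of repeat 2 were below all untreated libraries, and those of repeat 1 lay among them. The mean log2 difference of -0.31 (SE 0.20) did not pass (adjusted p = 0.592, and 0.186 with the replicate block).

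The size of the flg22 response differed between the repeats for some of the genes. Set against the spread over the 3 genotypes, the log2 response was larger in repeat 2 than in repeat 1 for 3 of 9 genes, where 8.13% of all genes tested had a larger response in repeat 2. LecRK-IX.2 and LecRK-VI.2 are among the 3 and were tested only through their treated libraries. This count is therefore a description, and nothing is read from it against that share. LecRK-IX.2 had a mean log2 response of 1.43 in repeat 1 and 3.91 in repeat 2, a difference of 2.47 (SE 0.27, adjusted p = 0.000268). LecRK-VI.3 had 1.24 and 2.93, a difference of 1.69 (SE 0.34, adjusted p = 0.00965). LecRK-VI.2 had 1.19 and 2.47, a difference of 1.27 (SE 0.25, adjusted p = 0.00886). AT5G01542, on its opposite strand, also had a larger response in repeat 2, by 2.39 (adjusted p = 9.27e-05 by limma), and the values of both cannot be told apart. With a pseudocount of 0.1 the calls of LecRK-VI.3 (adjusted p = 0.0591) and LecRK-VI.2 (adjusted p = 0.127) were lost. LecRK-V.5 had 1.16 and 2.10, a difference of 0.94 (SE 0.34) that did not pass (adjusted p = 0.126). Before treatment, LecRK-I.8 was the one gene of the 9 that differed between repeats, higher in repeat 2 by 0.44 (SE 0.12, adjusted p = 0.0121), where 23.1% of all genes tested were higher in repeat 2. Without an untreated WT library, from either repeat, that call of LecRK-I.8 was lost.

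**Figure D3:**
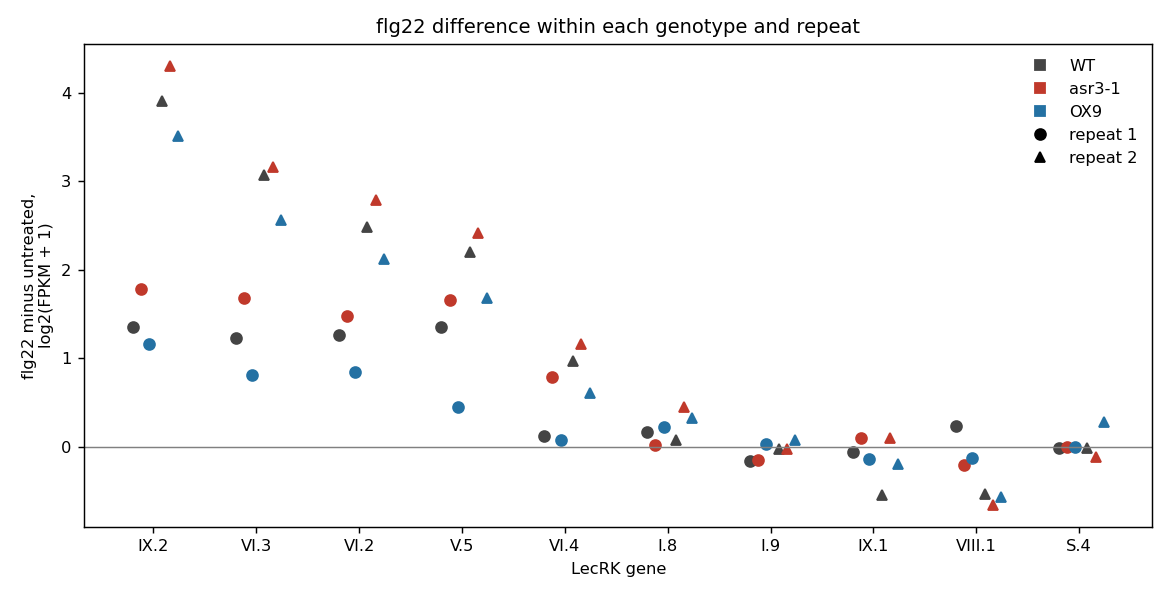
Difference between the treated and the untreated library of each genotype and repeat on the log2(FPKM + 1) scale, for each LecRK gene, with colours for genotypes, circles for repeat 1 and triangles for repeat 2. All 6 points of LecRK-IX.2, LecRK-VI.3, LecRK-VI.2 and LecRK-V.5 lie above 0, the points of repeat 2 higher within each genotype, and those of LecRK-VIII.1 lie below 0 except that of WT in repeat 1.

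Within a single genotype none of the 9 genes passed without the block. In WT 0.101% of all genes tested rose, in asr3-1 0.193% and in OX9 0.0%. At an unadjusted p under 0.05, 3 of the 9 genes stood out in WT, 5 in asr3-1 and 1 in OX9 by limma, where 6.78%, 7.86% and 4.57% of all genes tested did. LecRK-VI.2 is among them in each genotype and LecRK-IX.2 in WT and asr3-1. Both were tested only through their treated libraries, so these counts are a description and nothing is read from them against the shares. In asr3-1 LecRK-V.5 passed with the replicate block (log2 difference 2.03, SE 0.36, adjusted p = 0.0465), where 1.59% of all genes rose in that fit. In WT and OX9 the log2 differences of LecRK-V.5 were 1.78 and 1.06, with an adjusted p of 0.0862 and 0.283 with the block. Passing in 1 genotype and not in another is no test of a difference between them.

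The comparisons of ASR3 lines with WT addressed whether these transcripts differ in the asr3-1 mutant or in OX9. ASR3 itself was at 6.24 to 9.59 FPKM in the 4 WT libraries, 2.50 to 6.58 in asr3-1 and 383.5 to 590.4 in OX9. The ranges of WT and asr3-1 overlapped, so these values do not show a loss of the ASR3 transcript in asr3-1. None of the 9 LecRK genes differed between a line and WT, with or without flg22, and none had a response that differed from that of WT, in any of the fits run. Of all genes tested, 0.0% passed for asr3-1 against WT without flg22 and 0.0% with it, 0.00964% for OX9 against WT without flg22 and 0.00482% with it, and 0.0% in both differences of response. The smallest unadjusted p among the LecRKs was that of LecRK-IX.1 in asr3-1 against WT with flg22 (log2 difference 0.67, SE 0.22), with an adjusted p of 1.0 by limma and of 0.731 with the repeats blocked within each treatment. It was the only one of the 9 with an unadjusted p under 0.05 in these 6 comparisons, each of which gave such a p for 0.385 to 0.834% of all genes tested. LecRK-IX.1 was at 2.09 and 1.84 FPKM in treated asr3-1 and at 0.878 and 0.833 in treated WT. These values cannot be told apart from those of AT5G10540, which covers LecRK-IX.1 on the opposite strand at 28.9 to 39.1 FPKM. How the reads were divided between both genes was not tested.

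The order of the genotypes with flg22 was alike in both repeats for several genes, without passing a test. Treated asr3-1 was the highest of the 3 genotypes in both repeats for 6 of 9 genes (LecRK-V.5, LecRK-VI.2, LecRK-VI.3, LecRK-VI.4, LecRK-IX.1 and LecRK-IX.2), against 15.4% of all genes tested. Among the 2098 genes that rose with the replicate block the share was 45.6%, and 5 of the 5 LecRKs among them had this order. Treated OX9 was the lowest in both repeats for LecRK-V.5, LecRK-VI.2, LecRK-VI.3 and LecRK-IX.2, against 16.4% of all genes tested and 51.5% of the genes that rose. LecRK-VI.2 and LecRK-IX.2 were tested only through these treated libraries. The counts of both orders are therefore a description, and nothing is read from them against the shares. The values of LecRK-VI.2 and LecRK-IX.1 cannot be told apart from those of the genes on their opposite strands. In LecRK-VI.3 and LecRK-IX.2 of repeat 1, WT and OX9 were nearly level, at 2.71 and 2.65 FPKM and at 2.29 and 2.28. The log2 differences of asr3-1 from WT with flg22 ran from 0.02 for LecRK-I.9 to 0.67 for LecRK-IX.1, and those of OX9 from -0.61 for LecRK-V.5 to 0.34 for LecRK-IX.1. For LecRK-IX.2 the SE of such a difference was 1.14 without the block and 0.83 with it. A gap between repeats that the genotypes share adds to each SE. Treated libraries of LecRK-IX.2 were at 2.28 to 3.67 FPKM in repeat 1 and at 16.0 to 25.9 in repeat 2. This gap and the number of libraries, 2 against 2, limit what the comparison can show. Both comparisons share the treated WT libraries. The summed FPKM of the treated libraries also ran from asr3-1 over WT to OX9 in both repeats. The sums were 1077744, 1033593 and 981113 in repeat 1, and 1249261, 1228059 and 1032692 in repeat 2. Their part in the order of the LecRKs was not tested.

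**Figure D4:**
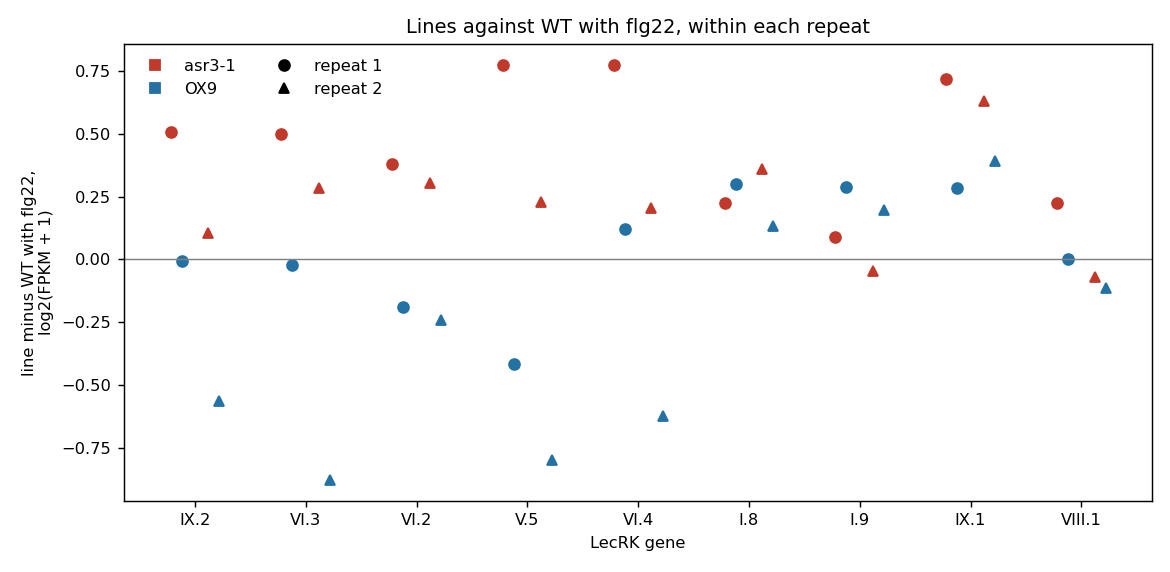
Difference of each ASR3 line from WT with flg22 within each repeat, on the log2(FPKM + 1) scale, for the 9 LecRK genes tested, with red for asr3-1, blue for OX9, circles for repeat 1 and triangles for repeat 2. The asr3-1 points lie above 0 in both repeats for the first 5 genes and also for LecRK-I.8 and LecRK-IX.1. For LecRK-I.9 and LecRK-VIII.1 they lie above 0 in repeat 1 only. No difference of a line from WT passed the test.

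The wider family gave the setting of these values. Of the other 35 L-type LecRKs, 24 were tested and 4 rose without the block: LecRK-VII.2 (AT4G28350, log2 difference 2.31, adjusted p = 0.0103), LecRK-VII.1 (AT4G04960, 0.81, adjusted p = 0.0144), LecRK-S.1 (AT1G15530, 1.59, adjusted p = 0.0196) and LecRK-IV.2 (AT3G53810, 1.98, adjusted p = 0.0236). LecRK-VII.2 went from 2.01 to 3.24 FPKM over the untreated libraries to 9.05 to 34.9 with flg22. LecRK-IV.1 (AT2G37710) was the most abundant at 18.0 to 28.6 FPKM untreated and 27.1 to 64.2 with flg22. Its log2 difference was 0.87 (adjusted p = 0.0647, and 0.0029 with the replicate block). LecRK-V.9 (AT4G29050) was at 2.19 to 3.20 and 4.91 to 33.5 (1.84, adjusted p = 0.0880, and 0.0118 with the replicate block). With the replicate block 11 of the 24 rose, namely these 6 and LecRK-I.7, LecRK-IV.3, LecRK-VI.1, LecRK-S.2 and LecRK-S.5, and none fell. Of all genes tested, 3.83% rose without the block and 10.1% with it. The median log2 difference of the 24 was 0.25, beside -0.03 over all genes. Within clade I, LecRK-I.7, the neighbour of LecRK-I.8, was at 1.77 to 8.54 FPKM untreated and 6.23 to 23.1 with flg22, a log2 difference of 1.32 (adjusted p = 0.166, and 0.00350 with the replicate block). Within clade VI, LecRK-VI.1, which lies on another chromosome than the tandem row, had a log2 difference of 0.97 (adjusted p = 0.119, and 0.0292 with the replicate block); it reached 1 FPKM in 1 untreated and 6 treated libraries, and so was tested through the latter.

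**Figure D5:**
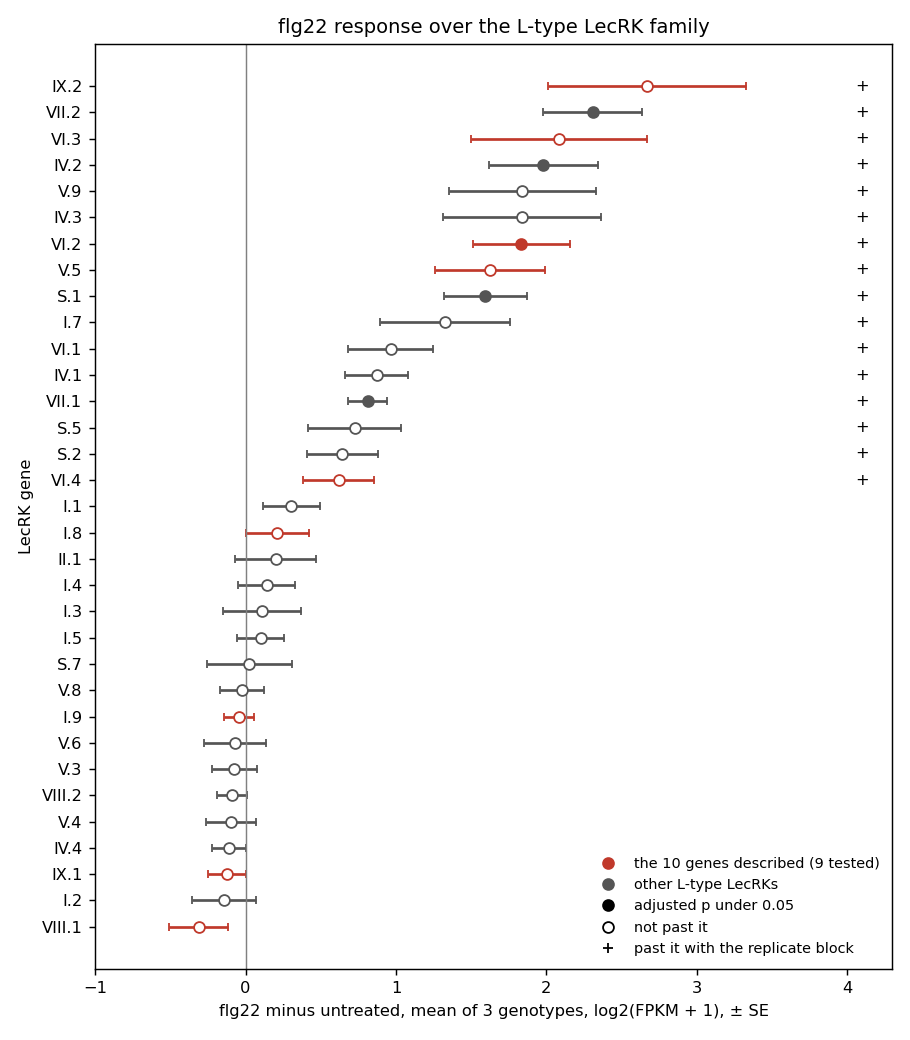
Mean flg22 difference over 3 genotypes on the log2(FPKM + 1) scale, with its SE, for the 33 L-type LecRK genes tested, the 9 described here in red and the others in grey. Filled points pass an adjusted p under 0.05 without the replicate block (5 genes) and plus signs mark those that pass with it (16 genes), all of them above 0. Of all genes tested, 3.83% rose without the block and 10.1% with it.

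Lectins without a kinase domain and the flg22 receptor complex were examined next to them. Beside the counts given here, 3.83% of all genes tested rose without the block and 10.1% with it. The gene lists were chosen with earlier results of these data known, so the counts are a description. Of 9 legume lectin genes without a kinase domain 8 were tested and 3 rose: AT3G16530 (log2 difference 3.18, adjusted p = 0.00914), AT3G15356 (3.48, adjusted p = 0.0136) and AT1G53080 (3.61, adjusted p = 0.0493). AT1G53080, at 0.0 to 0.826 FPKM untreated and 1.98 to 57.8 with flg22, was tested only through its treated libraries, so its rise is a description. AT3G16530 went from 40.96 to 161.6 FPKM over the untreated libraries to 510.7 to 1232 with flg22, which is far above the LecRKs. Of 10 genes of receptor complexes and early signalling 5 rose without the block and 9 with it. FLS2, the flg22 receptor, rose by 1.21 (adjusted p = 0.00398), from 3.85 to 4.93 FPKM untreated to 7.39 to 15.2 with flg22, and SD1-29, also called LORE, a lectin receptor kinase of another type that senses bacterial fatty acids, rose by 1.75 (adjusted p = 0.00282). CERK1, a chitin co-receptor, rose by 1.67 (adjusted p = 0.0236) and the cytoplasmic kinase BIK1 by 2.22 (adjusted p = 0.0374). Of 8 early flg22 markers 6 rose without the block and 8 with it, among them WRKY29 (2.06, adjusted p = 0.00285), CYP81F2 (5.39, adjusted p = 0.00723), MYB51 (4.19, adjusted p = 0.0129) and WRKY33 (4.05, adjusted p = 0.0169).

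The 5 genes outside the 10 whose pattern over the 12 libraries was most like the mean pattern of the 9 LecRKs tested were PSKR1, TSB1, EFR, AT1G76970 and VPS46.2, at Pearson r of 0.991 to 0.993 among 19749 genes. PSKR1 is the receptor kinase for phytosulfokine, EFR that for bacterial elongation factor Tu, and TSB1 a tryptophan synthase subunit. These r values share treatment and repeat across the libraries and describe likeness only.

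In each library 19137 to 19621 genes reached 1 FPKM, and low values of the table put the scale at an estimated 6.1 to 12.2 reads per FPKM and kilobase. The FPKM of a library summed to 1228059 in treated WT and 1249261 in treated asr3-1 of repeat 2, and to 981113 to 1077744 in the other 10 libraries. Both green tissue and root genes were present in all libraries, as in whole seedlings. Of 8 green tissue genes 0 changed by limma at an adjusted p under 0.05 (2 had an unadjusted p under that value), and with the replicate block 3 fell (LHCB2.2, LHCB3 and PSAD-1), where 5.69% of all genes fell. The green genes summed to 36700 to 53140 FPKM untreated and 32280 to 45690 with flg22, and the 8 root genes, of which 0 changed in either fit and TIP2;3 alone had an unadjusted p under 0.05, to 897.1 to 2058 and 1351 to 1646. Their part in the LecRK values was not tested. In whole seedlings, fewer cells of a type and less RNA per cell cannot be told apart.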

How the data were processed

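Values are FPKM (reads scaled by transcript length and by library size) as the authors deposited them, per the file headers, for 12 libraries read as 100 nt single ends; TopHat2 2.0.12 and Cuffdiff 2.2.1 with the build TAIR10, beside bcl2fastq 1.8.4 and cutadapt 1.0, appear in the submitters' processing notes, with no roles. No counts are given, so depth is unknown beyond an estimate from low values, and no counting intervals were made. The sources used here do not say how reads matching several places were treated. Of 34066 lines, 693 had no identifier and 88 identifiers listed more than once were left out. The LecRK genes and gene lists were chosen with earlier results of these data known.

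The 20753 genes that reached 1 FPKM in 2 or more libraries were fitted on log2(FPKM + 1) in R 4.3.3 with limma 3.58.1 (trend, robust), with a mean for each of 6 groups; the plan's other branch, for counts, did not apply. This scale understates changes of low genes. P values are 2-sided and adjusted by Benjamini-Hochberg over all genes tested within each of 12 comparisons, with a threshold of 0.05. Repeat comparisons used the genotypes as replicates with genotype as a term. The scripts were tested on simulated data. P values measure the spread between pools of 2 biological replicates.

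Per the design text, libraries of a repeat belong to an independent experiment, and deviations from the group means correlated between libraries of the same number in all 15 pairs of groups (r = 0.568 to 0.805). Values or counts with the replicate block are therefore given beside several of those without it.

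All 10 members were named. Of the other LecRKs the 6 with the smallest p in the pooled response and those passing a comparison were named, and of other lists up to 4 with the smallest p. Names and sequences are from RefSeq TAIR10.1, read with Biopython 1.88; 32722 of 33197 identifiers matched a locus tag. Promoters are the 250 bases before the annotated start, and no bases after it were used although the plan had named them. Identity is over aligned coding bases, and 33 bases is the exact run left in a 100 nt read with at most 2 mismatches. Alternatives covered the pseudocount, filter, scaling, block, model, samples fitted and each library left out.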

Additional observations from a re-analysis of the deposited data

Results flagged for a closer look

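The response to flg22 differed between the repeats for LecRK-IX.2, LecRK-VI.3 and LecRK-VI.2. On log2(FPKM + 1) the response was larger in repeat 2 by 2.47 for LecRK-IX.2, by 1.69 for LecRK-VI.3 and by 1.27 for LecRK-VI.2, in 3 of 3 genotypes each, and the test of the difference itself passed at an adjusted p of 0.000268, 0.00965 and 0.00886 (limma). With a pseudocount of 0.1 the calls of LecRK-VI.3 (adjusted p = 0.0591) and LecRK-VI.2 (adjusted p = 0.127) were lost. Groups of 2 libraries were too small for a check of single libraries that stand apart. The values of LecRK-VI.2 cannot be told apart from those of AT5G01542 on its opposite strand, whose response was larger in repeat 2 by 2.39. The cause of the difference between repeats was not tested.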

How the results depend on the processing

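The pooled count of 1 LecRK past the threshold became 3 with a pseudocount of 0.1, 2 with median-ratio scaling, 2 with limma without trend and robust, and 5 with the replicate block. Without each library in turn it ran from 0 to 4. With a mean of at least 5 FPKM it stayed at 1 but for another gene, LecRK-V.5 (adjusted p = 0.0482), since LecRK-VI.2 was not tested there. With the block, the count of 5 ran from 4 to 5 over 17 alternatives chosen after seeing the data. LecRK-VI.4 was lost in 9 of the 12 that left out a library, and LecRK-VIII.1 passed as lower without the untreated WT library of repeat 1. The asr3-1 count of 0 became 1 with the replicate block, and the count in WT and OX9 stayed at 0 under each alternative. The 3 genes with a larger response in repeat 2 became 1 (LecRK-IX.2) with a pseudocount of 0.1. The untreated difference between repeats went from 1 gene to 2 with that pseudocount and ran from 0 to 3 without each library in turn. In comparisons with WT and differences of response the count was 0 under each alternative, the replicate block included. No log2 difference of the 9 LecRKs tested among the 10 changed sign in the pooled response; other LecRKs were not run under alternatives. Its range over alternatives was 2.18 to 3.88 for LecRK-IX.2 and 1.62 to 4.05 for LecRK-VI.2, the upper ends with a pseudocount of 0.1. Quantile normalization moved the median of all genes to -0.13 in the pooled response. The cause of these shifts was not tested. With 2 pools a group and no counts, small differences between genotypes could not be detected.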
